A study of Mus musculus with 18 samples.

Results

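The genes described here are 7 keratins of resting mouse epidermis: Krt1, Krt10, Krt2 and Krt77 of the suprabasal layers, and Krt5, Krt14 and Krt15 of the basal layer. The list was drawn up from the layers in which these genes are known to be made, with earlier results of these data in view, and their rows were found in the array table by gene symbol. Of the 22180 genes that the table names by a row of their own, 6 are these keratins, each with 1 row. Krt5 has no row of its own. Its probe set is annotated to Krt5 and the wound keratin Krt6a together, so no value is given for Krt5 alone.

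Keratins build the intermediate filaments of epithelial cells, and each filament subunit pairs a type I keratin with a type II keratin. Basal keratinocytes make KRT14 (type I) with KRT5 (type II), and cells that leave the basement membrane switch to KRT10 (type I) with KRT1 (type II). KRT2 and KRT77 are further type II keratins of suprabasal cells. KRT15 is a type I keratin of basal cells and is widely used as a marker of the hair follicle bulge. Injured epidermis makes the wound keratins Krt6a, Krt6b, Krt16 and Krt17 in addition.

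The study asked how epidermis without the aryl hydrocarbon receptor (AhR), a ligand-activated transcription factor, responds to mechanical stress. Female AhR-/- mice of the B6.129-AhRtm1Bra/J line (KO) were compared with their AhR+/+ littermates (WT), all on a B6;129 background. The shaved back skin was either left unstressed (0 h) or taken 6 h or 24 h after tape stripping, in which adhesive film is pulled off repeatedly to remove the outermost layers. The 6 groups hold 3 arrays each, 18 in all, made with RNA from epidermal sheets. The deletion is present in every cell of these mice and not in keratinocytes alone. The labels used here give no age.

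Values in the table are logarithms, read here as log2, with each row centred on its own median over the 18 arrays. A value of 0 is therefore the gene's middle array. The table shows how a gene differs between arrays but not how abundant it is, so no keratin's level can be set against that of another, and the tissue label could not be checked against absolute marker levels. Array medians lay between -0.02 and 0.01. The row of the targeted gene, Ahr, was lower in KO averaged over the 3 times (KO minus WT -0.71, adjusted p = 0.000939) and, among the single times, passed at 6 h (-1.11, adjusted p = 0.00549). In unstressed skin its difference was -0.32 (adjusted p = 0.556), and 24 h after stripping -0.70 (adjusted p = 0.22). Within KO the Ahr row fell by 0.65 from 0 h to 6 h (adjusted p = 0.0209) and by 0.62 to 24 h (adjusted p = 0.0147), and the unstressed KO arrays (-0.13, 0.04 and -0.02) overlapped the WT arrays of 24 h (-0.01, 0.12 and 0.01). WT 0 h replicate 1 stood apart from its group and correlated most closely with KO 0 h replicate 3 (r = 0.627 across genes). The labels also carry a number per sample of unstated meaning: 7 arrays have a number below 3000 and 11 have a higher number, the latter including all 24 h arrays. At 0 h the lower numbers hold KO replicate 1 and WT replicates 2 and 3, and at 6 h replicates 2 and 3 of both genotypes. Fits within these numbers therefore leave a single array in some groups.

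**Figure D1:**
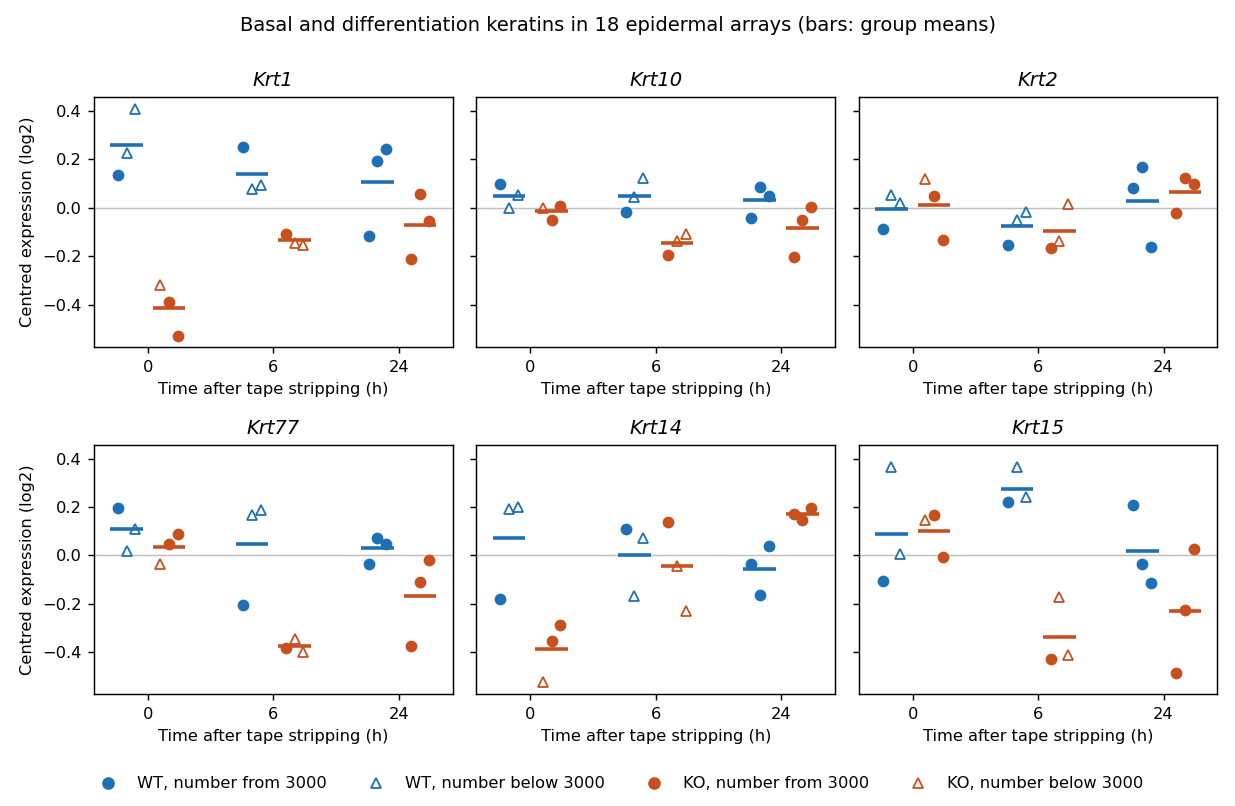
Centred log2 value of each keratin (y axis) in the 18 arrays by group (x axis), where filled circles are arrays with a label number from 3000, open triangles arrays with a number below 3000, and bars the mean of 3 arrays. The lowest group means of Krt1 and Krt14 belong to unstressed KO skin, those of Krt77 and Krt15 to KO skin 6 h after stripping, and Krt2 overlaps between genotypes at every time.

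The 6 keratins differed in how much they moved over the 18 arrays. Krt15 and Krt1 had the widest spread, with SDs of 0.261 and 0.250, higher than those of 88.5% and 86.7% of all 23521 tested rows. Krt14 (SD 0.217) and Krt77 (SD 0.203) followed. Krt10 and Krt2 were the quietest of the 6, with SDs of 0.0943 and 0.109, both under the median of all rows, 0.136. The 2 keratins of the classical suprabasal pair, Krt1 and Krt10, thus sat near opposite ends of this range.

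The sequence just upstream of 4 of these genes is shown because the genes differ in their response, and because AhR binds DNA at a short core motif. Each window is the 250 bases before the annotated start site, from RefSeq on GRCm38.p6. All 4 lie on the minus strand and are read 5′ to 3′ toward the gene. Capitals mark matches to the letters TATANA, a form of the TATA box, or GCGTG, the core of the AhR element, on either strand. Overlapping matches were joined. The form TATANA was chosen after the windows were seen.
Krt10, chr11:99389365-99389614: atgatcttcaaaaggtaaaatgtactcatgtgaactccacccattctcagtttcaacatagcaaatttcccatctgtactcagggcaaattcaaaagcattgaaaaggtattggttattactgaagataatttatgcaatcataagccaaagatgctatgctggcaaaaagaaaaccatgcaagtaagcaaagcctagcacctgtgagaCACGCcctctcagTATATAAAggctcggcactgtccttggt
Krt77, chr15:101869706-101869955: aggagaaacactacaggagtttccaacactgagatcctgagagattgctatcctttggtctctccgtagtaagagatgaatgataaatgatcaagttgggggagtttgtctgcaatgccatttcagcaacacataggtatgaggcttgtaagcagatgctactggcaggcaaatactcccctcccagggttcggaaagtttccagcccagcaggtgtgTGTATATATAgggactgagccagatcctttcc
Krt2, chr15:101818170-101818419: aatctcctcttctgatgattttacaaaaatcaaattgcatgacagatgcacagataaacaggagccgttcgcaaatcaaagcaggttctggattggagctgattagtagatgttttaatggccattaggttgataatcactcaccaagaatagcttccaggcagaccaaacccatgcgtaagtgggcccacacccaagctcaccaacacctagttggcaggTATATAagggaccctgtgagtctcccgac
Krt14, chr11:100206031-100206280: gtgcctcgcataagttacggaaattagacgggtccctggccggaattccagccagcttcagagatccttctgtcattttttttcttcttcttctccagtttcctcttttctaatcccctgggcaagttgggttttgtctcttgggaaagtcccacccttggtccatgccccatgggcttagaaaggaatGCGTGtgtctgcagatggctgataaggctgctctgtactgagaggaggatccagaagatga

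The 3 suprabasal keratins in this set, Krt10, Krt77 and Krt2, each hold TATANA within a stretch from -32 to -21 before the start site. Krt14 and Krt5, which was searched but is not shown, do not. The Krt5 window holds the similar letters gataaaa, which TATANA leaves out. Because the form was chosen after the windows were seen, this contrast is not a test of a difference between layers. TATANA occurs anywhere in the window, on either strand, in 22.6% of all 32851 windows of this length. The letters GCGTG occur in the Krt10 window on the opposite strand, at -41 to -37, and in the Krt14 window on the same strand, at -61 to -57. They are not in the windows of Krt77, Krt2 or Krt5, and 28.2% of all windows hold them. Neither TGANTCA, an AP-1 motif found in 6.75% of windows, nor GCCNNNGGC, an AP-2 motif found in 13.7%, is in any of the 5 keratin windows searched, Krt5 included. These are letter matches and not measured binding sites. In the genome, Krt1 lies between Krt2 and Krt77 on chromosome 15, Krt5 lies beside Krt6a on the same chromosome, and Krt14 lies between Krt9 and Krt16 on chromosome 11.

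In unstressed epidermis, the suprabasal keratin Krt1 was lower in KO than in WT, and none of the other 5 keratins passed the test. The 3 KO values of Krt1 were -0.32, -0.39 and -0.53, and the 3 WT values were 0.14, 0.23 and 0.41. The groups do not overlap, and the closest arrays are further apart than the spread within either group. The means were -0.41 ± 0.11 in KO and 0.26 ± 0.14 in WT (SD, n = 3 each). Krt1 was thus 1.59-fold lower in KO, a log2 difference of -0.67 (SE 0.0996, 95% interval -0.88 to -0.46, adjusted p = 0.0212). With that, 1 of 6 keratins passed, where 0.0978% of all tested rows did. As in every bulk sample, fewer cells of a type and less RNA per cell cannot be told apart.

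Krt10, the filament partner of Krt1, did not pass at 0 h. Its KO values were 0.00, -0.05 and 0.01, and its WT values 0.10, 0.00 and 0.05, which overlap. Its log2 difference was -0.06 with a 95% interval of -0.19 to 0.06, which lies wholly above that of Krt1. Within each array, Krt1 minus Krt10 averaged -0.40 ± 0.12 in KO and 0.21 ± 0.16 in WT at 0 h (SD, n = 3). Both values are centred, so this contrast describes unequal change between the partners and not their ratio in the cell. Krt77 and Krt2 had differences of -0.07 and 0.02 at 0 h, with intervals of -0.29 to 0.14 and -0.17 to 0.20.

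Among the basal keratins at 0 h, Krt14 was the member nearest to passing. Its KO values were -0.52, -0.35 and -0.29, and its WT values were -0.18, 0.19 and 0.20. All 3 KO arrays lie below all 3 WT arrays, but WT replicate 1 lies closer to KO than to the other WT arrays. The difference of -0.46 (95% interval -0.70 to -0.22) had an adjusted p of 0.204 and was -0.58 (adjusted p = 0.0404) without WT 0 h replicate 1. Krt1 and Krt14 were the 2 of 6 keratins whose genotypes did not overlap at 0 h, against 13.7% of all rows. The row shared by Krt5 and Krt6a had values of -0.21, -0.19 and -0.20 in KO and -0.12, 0.19 and 0.16 in WT, which do not overlap either (difference -0.27, adjusted p over all rows = 0.372). Krt15 differed by 0.01 (95% interval -0.28 to 0.30), with overlapping groups.

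The Krt1 call at 0 h depended on single arrays. It was lost when KO replicate 2 (adjusted p = 0.103), KO replicate 3 (0.0822), WT replicate 2 (0.0813) or WT replicate 3 (0.159) was left out, although the difference stayed between -0.73 and -0.59, and it was lost with an adjusted p of 0.212 when the fit held only the 0 h arrays. Within the lower label numbers, with KO replicate 1 as the only KO array, the Krt1 difference was -0.64 and that of Krt14 -0.72. Within the higher numbers, with WT replicate 1 as the only WT array, they were -0.60 and -0.14.

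Markers of another cell type moved with Krt1. Of 8 measured markers of epidermal T cells, 4 were lower in KO at 0 h, where 0.0978% of all rows passed. They were the receptor chains Trgv5 (-3.11, adjusted p = 0.000431) and Cd3e (-1.61, adjusted p = 0.0145), the adaptor Trat1 (-1.40, adjusted p = 0.000606) and the cytokine receptor chain Il2rb (-0.79, adjusted p = 0.0139). The mean of the 8 markers ran from -1.01 to -0.28 in KO and from 0.35 to 0.76 in WT at 0 h. The sebaceous gland list, with 0 of 7 measured markers passing, ran from -0.52 to -0.15 in KO and from -0.03 to 0.08 in WT, and the Langerhans cell list, with 0 of 8 passing, from -0.57 to 0.00 in KO and from 0.00 to 0.41 in WT. The part of these cells in the keratin differences was not tested. Because the rows are centred, it cannot be read which markers are at 0.

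The other genes of epidermal structure did not pass at 0 h, where 0.0978% of all rows did, so the counts say little about these lists. None of 19 other soft keratins, 21 anchors of keratin filaments, 9 measured basal layer genes, 18 spinous and granular layer genes or 27 measured regulators of differentiation passed. The list medians were -0.01, -0.08, -0.12, -0.09 and -0.03, beside 0.00 over all rows. Of the soft keratins 8 of 19 were above 0, while the wound keratins Krt16 and Krt6a had differences of -1.86 (adjusted p = 0.211) and -1.55 (adjusted p = 0.604).

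**Figure D2:**
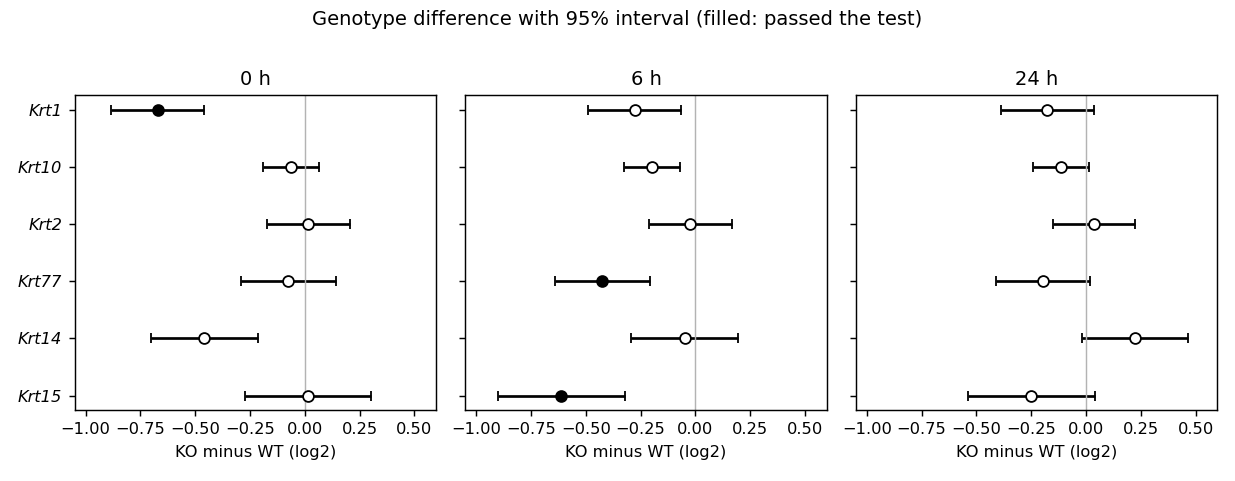
Log2 difference KO minus WT of each keratin (x axis) at 0, 6 and 24 h, with 95% intervals from limma; filled symbols passed at an adjusted p under 0.05. The filled symbols are Krt1 in unstressed skin (-0.67) and Krt77 (-0.42) and Krt15 (-0.61) at the 6 h time, and the last time has none.

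At 6 h after tape stripping, Krt77 and Krt15 were lower in KO than in WT, and all 6 keratins had a difference below 0. Krt77, the suprabasal type II keratin encoded next to Krt1, had KO values of -0.38, -0.34 and -0.40. Its WT values were -0.21, 0.17 and 0.19. The KO arrays lie close together and below all WT arrays, of which replicate 1 is the nearest. Krt77 was 1.34-fold lower in KO (log2 difference -0.42, SE 0.101, 95% interval -0.64 to -0.21, adjusted p = 0.0434). Krt15, the basal and bulge keratin, had KO values of -0.43, -0.17 and -0.41 and WT values of 0.22, 0.37 and 0.24. The gap between the groups is larger than the spread within either. Krt15 was 1.53-fold lower in KO (log2 difference -0.61, SE 0.136, 95% interval -0.90 to -0.32, adjusted p = 0.0339). These are 2 of 6 keratins, where 2.18% of all rows passed. That share, 513 rows, is itself unsteady: 16 rows passed without WT 6 h replicate 3 and 1068 without WT 6 h replicate 1.

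Krt1 and Krt10 had no overlap between genotypes at 6 h but did not pass. The Krt1 values were -0.11, -0.14 and -0.15 in KO and 0.25, 0.08 and 0.10 in WT, a difference of -0.28 (adjusted p = 0.172). The Krt10 values were -0.20, -0.14 and -0.11 in KO and -0.02, 0.05 and 0.12 in WT, a difference of -0.20 (adjusted p = 0.1). In each case every KO array lies below every WT array, and with Krt77 and Krt15 this holds for 4 of 6 keratins, against 17.7% of all rows. The remaining keratins overlapped: Krt14 differed by -0.05 (95% interval -0.29 to 0.19) and Krt2 by -0.02 (95% interval -0.21 to 0.17).

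Both calls at 6 h depend on the arrays and the scaling. Krt77 lost its call without KO replicate 1 (adjusted p = 0.0577), KO replicate 2 (0.0908), KO replicate 3 (0.139), WT replicate 2 (0.168) or WT replicate 3 (0.197), with all rows tested (0.0565), after quantile normalization (-0.33, adjusted p = 0.146) and with the 6 h arrays alone (0.211). Krt15 lost its call without KO replicate 1 (0.0541), KO replicate 3 (0.129), WT replicate 2 (0.127) or WT replicate 3 (0.127), after quantile normalization (-0.56, adjusted p = 0.0653) and with the 6 h arrays alone (0.121). Within the lower label numbers, which hold replicates 2 and 3 of both genotypes, Krt77 differed by -0.55 (adjusted p = 0.0175) and Krt15 by -0.59 (adjusted p = 0.0605). The higher numbers hold only replicate 1 of each genotype, and there the differences were -0.18 and -0.65.

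Part of the genes that work with these keratins were also lower in KO at 6 h, where 2.18% of all rows passed. They are given by role. Of 18 spinous and granular layer genes, which mark cells on their way to the surface, 5 passed and all 5 were lower, with a list median of -0.37 beside 0.01 over all rows. They include the calmodulin-like gene Calml3 (-0.53, adjusted p = 0.00726), the secreted protein gene Dmkn (-0.25, adjusted p = 0.03) and the filaggrin relative Flg2 (-0.86, adjusted p = 0.0402). Of 21 anchors of keratin filaments, 2 were lower: the plakins Evpl (-0.50, adjusted p = 0.0143) and Ppl (-0.46, adjusted p = 0.0219), which link filaments to the cell envelope and desmosomes. Of 9 measured basal layer genes, 3 were lower: the laminin chain Lamb3 (-0.68, adjusted p = 0.0112), the anchoring fibril collagen Col7a1 (-0.55, adjusted p = 0.0143) and the laminin receptor Bcam (-0.47, adjusted p = 0.0285). The medians of these 2 lists were -0.20 and -0.30.

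Of 27 measured regulators of epidermal differentiation, 8 were lower and 0 higher in KO, with a median of -0.30. The examples with the smallest p were the Notch receptor Notch3 (-0.70, adjusted p = 0.0143), the POU factor Pou2f3 (-0.64, adjusted p = 0.0202) and the retinoid X receptor Rxra (-0.51, adjusted p = 0.027). Among 19 other soft keratins, Krt78 was lower (-0.53, adjusted p = 0.0112) and the wound keratin Krt6b higher (3.21, adjusted p = 0.0499), and the wound keratin Krt6a had a difference of 2.64 (adjusted p = 0.08). With the 6 h arrays alone 0 of all rows passed, so these list counts are lost there as well.

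Other cell types were read from their marker lists at 6 h, where 2.18% of all rows passed. Of 8 measured T cell markers, 5 were lower in KO (Trgv5, Trat1, Cd3e, Il2rb and Cd7, from -2.76 to -0.58), and the list mean ran from -0.45 to -0.16 in KO and from 0.54 to 0.69 in WT. The neutrophil and monocyte list, with 0 of 7 passing, ran from 0.08 to 0.40 in KO and from -0.12 to 0.00 in WT. Krt15 also marks hair follicles. Of the follicle list, 0 of 22 measured genes passed between genotypes at 6 h, and its mean ran from -0.10 to -0.04 in KO and from -0.10 to -0.01 in WT, which overlap. The part of T cells, myeloid cells and follicle cells in the keratin differences was not tested.

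At 24 h after stripping, none of the 6 keratins passed between genotypes, at either the adjusted threshold, which 0.017% of all rows passed, or an unadjusted p under 0.05, which 6.71% passed. Krt14 was the only keratin of the 6 whose groups did not overlap, against 12.9% of all rows, and it was higher in KO, not lower as at 0 h. Its KO values were 0.17, 0.15 and 0.19 and its WT values -0.04, -0.16 and 0.04, a difference of 0.22 (adjusted p = 0.754). The 3 KO arrays are nearly alike. Krt1 values were -0.21, 0.06 and -0.06 in KO and -0.12, 0.19 and 0.24 in WT (difference -0.18, adjusted p = 0.788), so the groups that were apart at 0 h overlapped. Krt15 differed by -0.25 (95% interval -0.54 to 0.04), Krt77 by -0.20 (95% interval -0.41 to 0.02), Krt10 by -0.11 (95% interval -0.24 to 0.01) and Krt2 by 0.04 (95% interval -0.15 to 0.22). Each interval includes 0, but that of Krt15 also includes a difference as large as that of Krt77 at 6 h, so the design does not show that the genotypes were alike. Of 8 measured T cell markers, 1 was lower in KO, Trgv5 (-2.97, adjusted p = 0.00122). The list mean ran from -0.77 to -0.68 in KO and from 0.13 to 0.58 in WT. The hair follicle list, with 0 of 22 passing, ran from -0.01 to 0.14 in KO. In WT it ran from 0.05 to 0.82, the highest being replicate 2. The part of these cells in the keratin differences was not tested.

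Averaged over the 3 times, Krt1 was lower in KO by a log2 difference of -0.37 (SE 0.0575, 95% interval -0.50 to -0.25, adjusted p = 0.0115), a 1.30-fold difference. It was the 1 of 6 keratins to pass, where 0.374% of all rows did. This call held in each of 18 fits that left out 1 array, with differences between -0.41 and -0.35. Within the higher label numbers, where some groups hold a single array, the difference was -0.38. Beside it, 6 of 8 measured T cell markers were lower over the 3 times (list median -1.20), Cd7 (-1.71, adjusted p = 0.000386) and Cd3g (-1.40, adjusted p = 0.00267) among them, and their part in the Krt1 difference was not tested. Genes of the epidermal lists were lower too. They were Lamb3 (-0.39, adjusted p = 0.0142), 1 of 9 measured basal layer genes, and Evpl (-0.30, adjusted p = 0.0154), 1 of 21 anchors. Krt78 (-0.27, adjusted p = 0.0236), 1 of 19 other soft keratins, and Ovol1 (-0.62, adjusted p = 0.0464), 1 of 27 measured regulators, also passed. Of 18 spinous and granular genes, 0 passed. Krt77 (-0.23, adjusted p = 0.109), Krt10 (-0.13, adjusted p = 0.138) and Krt15 (-0.28, adjusted p = 0.142) had intervals below 0 without passing, and Krt77 passed when WT 6 h replicate 1 was left out (-0.27, adjusted p = 0.0124). Krt14, whose difference changed sign between 0 h and 24 h, averaged -0.09 (95% interval -0.23 to 0.05), and Krt2 averaged 0.01 (95% interval -0.10 to 0.12).

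**Figure D3:**
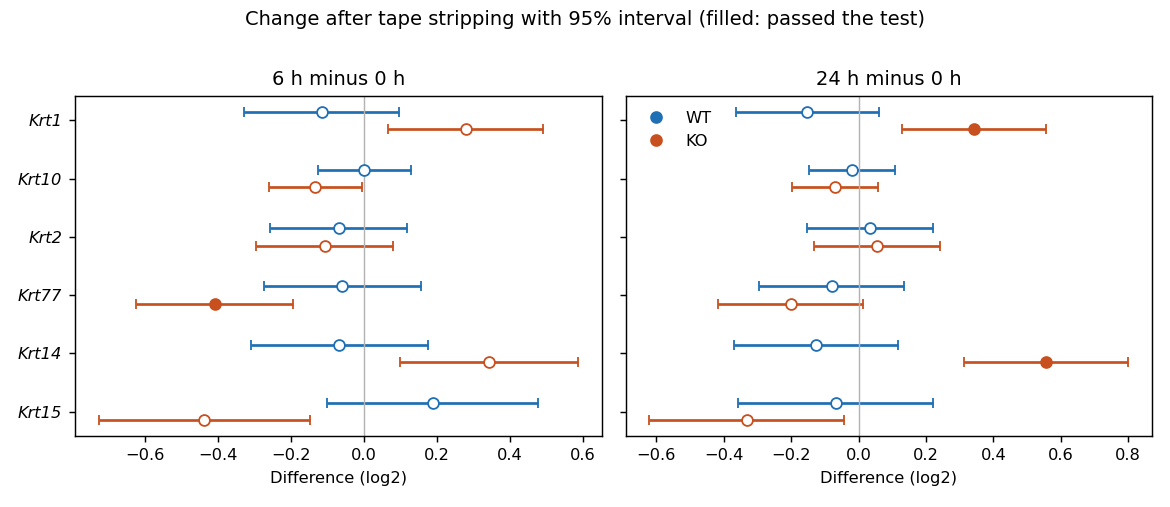
Log2 difference from 0 h of each keratin (x axis) at 6 h and at 24 h, within WT and within KO, with 95% intervals from limma; filled symbols passed at an adjusted p under 0.05. No keratin passed in WT, while in KO Krt77 was lower at 6 h (-0.41) and Krt14 (0.56) and Krt1 (0.34) were higher at 24 h.

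In WT epidermis, none of the 6 keratins changed past the threshold with time after stripping. By 6 h, 0 of 6 passed, as did 0% of all rows, and 0 of 6 had an unadjusted p under 0.05, against 4.62% of rows. The 6 h differences ran from -0.12 for Krt1 to 0.19 for Krt15. By 24 h, 0 of 6 passed at the adjusted threshold (0.0298% of rows) or unadjusted (12.5% of rows), with differences from -0.15 for Krt1 to 0.03 for Krt2. From 6 h to 24 h, 0 of 6 passed adjusted (0% of rows) or unadjusted (7.79% of rows). Krt15 was the 1 of 6 whose WT groups of 6 h and 24 h did not overlap, against 12.9% of all rows, and the nearest arrays were almost level, with values of 0.22, 0.37 and 0.24 at 6 h and 0.21, -0.04 and -0.11 at 24 h (difference -0.26, adjusted p = 0.676). For Krt10, the WT differences from 0 h had intervals of -0.13 to 0.13 at 6 h and -0.15 to 0.11 at 24 h.

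In KO epidermis, 1 keratin changed by 6 h and 2 by 24 h. Krt77 fell from 0 h values of -0.03, 0.05 and 0.09 to the 6 h values given above, a 1.33-fold decrease (log2 difference -0.41, 95% interval -0.62 to -0.19, adjusted p = 0.0328). It was the only 1 of 6 to pass at 6 h, where 4.98% of all rows passed. The other keratins went both ways without passing: Krt1 (0.28, adjusted p = 0.121) and Krt14 (0.34, adjusted p = 0.0967) had higher values at 6 h than at 0 h, and Krt15 (-0.44, adjusted p = 0.0763) and Krt10 (-0.13, adjusted p = 0.219) lower ones. In 5 of 6 keratins, Krt2 being the exception, the KO arrays of 6 h and 0 h did not overlap, against 24.5% of all rows. The Krt77 call was lost without KO 0 h replicate 2 (adjusted p = 0.104) or 3 (0.117), without KO 6 h replicate 1 (0.057), 2 (0.0664) or 3 (0.0884), and after quantile normalization (-0.35, adjusted p = 0.0821). Krt77 differed by -0.34 within the lower label numbers, with a single KO array at 0 h. Within the higher numbers, with a single KO array at 6 h, it differed by -0.45.

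Single markers of other cell types also changed in KO between 0 h and 6 h, where 4.98% of all rows passed. The T cell marker Thy1 was higher (1.17, adjusted p = 0.0119), 1 of 8 measured in its list, as was the sebaceous gene Cidea (0.58, adjusted p = 0.0225), 1 of 7. A single gene in so short a list is not read as a change of its cell type. All 8 measured Langerhans cell markers had differences above 0 with 0 passing, and the neutrophil and monocyte list, also with 0 of 7 passing, ran from -0.10 to -0.01 at 0 h and from 0.08 to 0.40 at 6 h. Their part in the keratin changes was not tested.

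Krt14 rose by 24 h in KO. Unstressed KO skin had values of -0.52, -0.35 and -0.29, KO skin 6 h after stripping had 0.14, -0.05 and -0.23, and KO skin 24 h after stripping had 0.17, 0.15 and 0.19. The 0 h arrays are below all later KO arrays. The 24 h arrays are above all earlier ones, but the lowest of them (0.145) is almost level with KO 6 h replicate 1 (0.139). The change from 6 h to 24 h did not pass (0.22, adjusted p = 0.439). The increase from 0 h to 24 h was 1.47-fold (log2 difference 0.56, SE 0.114, 95% interval 0.31 to 0.80, adjusted p = 0.00793). It passed in all 15 alternative fits run, the 6 that left out 1 array included, with differences from 0.49 to 0.61. The shared row of Krt5 and Krt6a, which covers the filament partner of Krt14, had KO values of -0.21, -0.19 and -0.20 at 0 h and -0.07, 0.07 and 0.08 at 24 h (difference 0.22, adjusted p over all rows = 0.148). Markers of other cells moved over the same hours in KO. The sebaceous list mean ran from -0.52 to -0.15 at 0 h and from -0.05 to 0.27 at 24 h, with 2 of 7 measured genes higher, Cidea (0.77, adjusted p = 0.0034) and Elovl3 (1.46, adjusted p = 0.0251). The neutrophil and monocyte list ran from -0.10 to -0.01 and then from 0.07 to 0.31, with 1 of 7 higher, Cd14 (0.74, adjusted p = 0.0329). Of 8 Langerhans cell markers Ptprc, which all leukocytes express, was lower (-0.77, adjusted p = 0.0236). It went against most of its list, in which 5 of 8 differences were above 0 with a median of 0.26. The Langerhans list mean ran from -0.57 to 0.00 at 0 h and from -0.27 to -0.07 at 24 h. In this comparison 9.56% of all rows passed. Their part in the Krt14 and Krt1 increases was not tested.

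Krt1 also rose in KO between 0 h and 24 h, from the low 0 h values to -0.21, 0.06 and -0.06. The increase was 1.27-fold (log2 difference 0.34, 95% interval 0.13 to 0.55, adjusted p = 0.0432). With Krt14, 2 of 6 keratins passed in this comparison, where 9.56% of all rows did. The Krt1 call was lost without KO 0 h replicate 2 (adjusted p = 0.0932) or 3 (0.178) and without KO 24 h replicate 2 (0.156) or 3 (0.104), and also after quantile normalization (0.0522), with all rows tested (0.0536), with the KO 0 h and 24 h arrays alone (0.0603) and within the higher label numbers (0.39, adjusted p = 0.0917). Krt77 and Krt15 were under their 0 h means at 24 h without passing (-0.20, adjusted p = 0.253, and -0.33, adjusted p = 0.151), and Krt10 and Krt2 differed by -0.07 and 0.06. Krt1 minus Krt10 within an array, which averaged -0.40 in KO at 0 h, averaged 0.01 ± 0.068 at 6 h and 0.01 ± 0.085 at 24 h (SD, n = 3).

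Between 6 h and 24 h in KO, all 6 keratins had a difference above 0, from 0.06 for Krt1 and Krt10 to 0.22 for Krt14. None passed at the adjusted threshold (1.24% of rows) or at an unadjusted p under 0.05 (13.8% of rows). Over both genotypes together, 0 of 6 keratins changed from 0 h to 24 h past the threshold that 10.8% of rows passed, and 1 of 6, Krt14 (0.22, adjusted p = 0.105), had an unadjusted p under 0.05, against 24.9% of rows.

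Other keratin-related genes changed with time. By 24 h in KO, where 9.56% of all rows passed, 6 of 21 anchors of keratin filaments were lower and 0 higher. Among them were the plakin Dst (-0.61, adjusted p = 0.00296) and the desmocollins Dsc3 (-0.60, adjusted p = 0.00648) and Dsc1 (-0.57, adjusted p = 0.0109). Of 9 measured basal layer genes, 3 were lower and 0 higher while Krt14 rose: the integrin Itga2 (-0.76, adjusted p = 0.0073), the basal transcription factor Trp63 (-0.37, adjusted p = 0.0147) and the laminin chain Lama3 (-0.55, adjusted p = 0.0191). Spinous and granular genes were split, with 2 of 18 higher, among them Sfn (0.40, adjusted p = 0.0313), and 2 lower, among them Flg2 (-0.88, adjusted p = 0.0137). The wound keratins Krt16 (3.40, adjusted p = 0.00165), Krt6b (5.34, adjusted p = 0.00204) and Krt6a (3.72, adjusted p = 0.00698) rose over the same hours. The unstressed WT arrays were split on Krt6a and Krt16. Replicates 1, 2 and 3 had -2.21, 0.09 and 0.29 for Krt6a and -1.14, 0.14 and 0.84 for Krt16. Medians of the anchor, basal layer and spinous lists were -0.05, -0.15 and -0.04 in KO, beside 0.02 over all rows. In WT, where 0 genes of these 3 lists and 0.0298% of all rows passed, the medians were -0.16, -0.15 and 0.01. Over both genotypes, where 10.8% of all rows passed, 8 of 21 anchors and 3 of 9 basal layer genes were lower. None of the genes in these 3 lists passed the 24 h interaction between genotype and time, which 0% of all rows passed. A difference between KO and WT in these changes is therefore not shown.

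At 6 h in KO, 3 of 21 anchors were lower, among them Ppl (-0.49, adjusted p = 0.0122), and of 9 basal layer genes the integrin Itgb1 was higher (0.47, adjusted p = 0.0329) and Col7a1 lower (-0.35, adjusted p = 0.0491). Of 18 spinous and granular genes, Calml3 (-0.56, adjusted p = 0.0059) and Flg2 (-1.06, adjusted p = 0.0126) were lower, as was Krt77, and Sfn was higher (0.41, adjusted p = 0.044). Of 19 other soft keratins, 3 were already higher at 6 h, the wound keratins Krt16 (3.08, adjusted p = 0.00805), Krt6b (3.73, adjusted p = 0.0183) and Krt6a (3.02, adjusted p = 0.0319). In the same list 2 were lower, Krt78 (-0.45, adjusted p = 0.0126) and Krt24 (-0.76, adjusted p = 0.015). Of 27 measured regulators, 4 were lower and 0 higher, led by the Notch target Hes1 (-0.88, adjusted p = 0.00991) and by Notch3 (-0.55, adjusted p = 0.0199). In WT, 0% of all rows passed from 0 h to 6 h. The 6 h interaction between genotype and time, which 0.731% of all rows passed, was passed by Calml3 (-0.73, adjusted p = 0.0181) and Krt16 (3.50, adjusted p = 0.0391). No other gene of these lists passed it, so for the others a difference between KO and WT in the change is not shown. Beside the Krt15 values, 3 of 22 measured hair follicle genes were lower at 6 h than at 0 h in KO, where 4.98% of all rows passed: Cd34 (-0.90, adjusted p = 0.0301), Lhx2 (-0.56, adjusted p = 0.0303) and Lgr5 (-0.70, adjusted p = 0.0452). The list median was -0.06 in KO and -0.14 in WT, with 8 of 22 genes above 0 in each. The whole follicle list ran from -0.06 to 0.15 in KO at 0 h and from -0.10 to -0.04 in KO at 6 h. The part of follicle cells in the Krt15 values was not tested.

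The response to stripping was then compared between genotypes by an interaction term, which tests whether the change from 0 h differs between KO and WT. At 6 h, 0 of 6 keratins passed, where 0.731% of rows did, and 4 of 6 had an unadjusted p under 0.05, against 13.1% of rows. These 4 were Krt15 (-0.63, adjusted p = 0.143), Krt1 (0.39, adjusted p = 0.211), Krt14 (0.41, adjusted p = 0.27) and Krt77 (-0.35, adjusted p = 0.29). Krt1 and Krt14 thus leaned upward and Krt15 and Krt77 downward in KO relative to WT. At 24 h, 0 of 6 passed, as did 0% of rows, and 2 of 6, Krt14 (0.68, 95% interval 0.34 to 1.03, adjusted p = 0.231) and Krt1 (0.49, 95% interval 0.19 to 0.79, adjusted p = 0.28), had an unadjusted p under 0.05, against 9.2% of rows. The Krt14 interaction at 24 h was 0.81 (adjusted p = 0.0499) without WT 0 h replicate 1 and 0.36 within the higher label numbers. Within those numbers the 6 h interactions of Krt77 and Krt14 were -0.05 and 0.17, and within the lower numbers -0.45 and 0.63. Each of these values within label numbers rests in part on a group with a single array. A call in KO and none in WT is therefore not shown to be a difference between genotypes for any of these keratins with all arrays in the fit. These contrasts share the 0 h arrays with the ones above and are not independent of them.

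**Figure D4:**
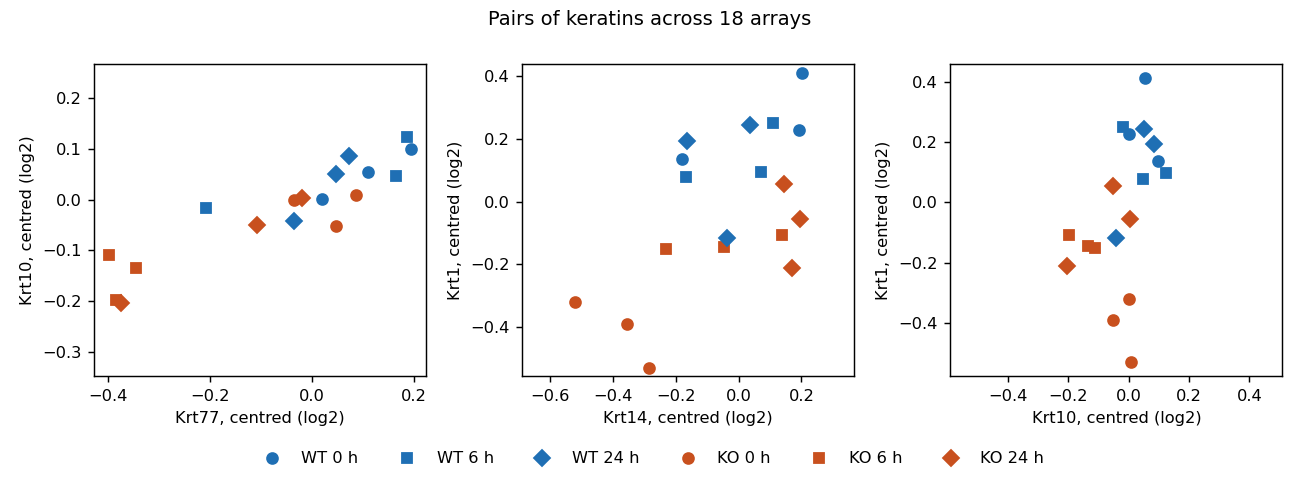
Centred log2 values of pairs of keratins in the same 18 arrays: Krt10 (y axis) against Krt77 (x axis), Krt1 against Krt14, and Krt1 against Krt10, with blue for WT, orange for KO, and circles, squares and diamonds for 0, 6 and 24 h. The points of Krt77 and Krt10 lie along a line (r = 0.913), and those of Krt10 and its filament partner Krt1 are scattered (r = 0.465).

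The keratins also differed in which of them varied together over the 18 arrays. These correlations are a description and carry no test, since arrays share groups, scaling and tissue make-up. Krt10 and Krt77, a type I and a type II suprabasal keratin on different chromosomes, had the highest correlation of the 15 pairs of keratins with a row of their own (Pearson r = 0.913, Spearman rho = 0.886). It was 0.808 after group means were removed, 0.871 without the 2 arrays farthest from the median of Krt10, and 0.894 in KO and 0.802 in WT (9 arrays each). The classical pair Krt1 and Krt10 had r = 0.465 (rho = 0.567), with -0.323 in KO and 0.198 in WT. Krt1 and the basal keratin Krt14 had r = 0.581 (rho = 0.542, 0.212 after group means were removed). Krt15 had r = 0.883 with Krt77 and 0.839 with Krt10 over the 9 KO arrays, and -0.202 and -0.423 over the 9 WT arrays; this difference was not tested. Krt14 and the shared row of Krt5 and Krt6a, which covers its filament partner, had r = 0.855 (rho = 0.833), and 0.833 after group means were removed.

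The genes most like each keratin were sought among all named genes by Pearson r over the 18 arrays, and the 3 highest are given. Krt1 was most like Il2rb (r = 0.885), Med16 (0.826) and Klrb1b (0.811), and with group means removed these fell to between 0.346 and 0.512. Il2rb is a lymphocyte cytokine receptor chain in the T cell list above, and Klrb1b is a receptor of natural killer cells. Krt10 was most like Ift172 (r = 0.916), Krt77 (0.913) and Snx33 (0.878). Krt77 was most like Tnik (r = 0.929), the plakin Ppl (0.924) and Snx33 (0.917), all with r of at least 0.81 after group means were removed. Krt14 was most like the glycolytic enzyme Pkm (r = 0.913) and the mitochondrial genes Samm50 (0.89) and Atp5b (0.889). Krt15 was most like Il1f5 (r = 0.866), an antagonist of the interleukin-36 receptor, Smoc2 (0.858) and Foxo4 (0.845). For Krt2, which had a small spread, the highest were Kcnip1 (r = 0.787), Palm (0.75) and Mn1 (0.741), all under those of the other keratins.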

How the data were processed

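Epidermal RNA from 18 samples was labelled as biotinylated cDNA and hybridised to Affymetrix gene arrays, per the labels' protocols. The authors deposited 1 table of 33793 rows by 18 arrays. Its unit was read from the deposited values, which run from -6.40 to 4.30 with every row's median at 0, and was taken as log2; were it a natural log, each difference would be larger by a factor of 1.44. No source used here states the summarisation or normalisation. With row levels removed, dim rows could not be left out, and the number of arrays limits the precision.

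The 23521 rows that name 1 gene were tested. limma 3.58.1 (R 4.3.3), checked on simulated data, fitted 6 group means to the 18 arrays, with 13 two-sided contrasts. Benjamini-Hochberg adjustment ran over all 23521 rows, and rows passed under 0.05. Samples were grouped by title. The series text speaks of littermates, but separate animals are not named per array, so p-values measure the spread between these samples.

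The text names every keratin listed, the 3 genes most like each, and Ahr. Up to 3 genes with the smallest p per pathway list and passing cell type markers are named in the comparisons described. Passing genes of these lists are not named for every comparison, so a gene left unnamed may still have passed. Examples from 0 h to 24 h are Trat1, lower in WT (-1.04, adjusted p = 0.0472), and Lgr5, lower in KO (-0.74, adjusted p = 0.0241). Cell type lists for epidermal T cells, Langerhans cells, neutrophils and monocytes, sebaceous gland and hair follicle are described beside the results. Those for melanocytes, dermal fibroblasts, endothelium and skeletal muscle had 0 genes passing between genotypes at any time. From 0 h to 24 h over both genotypes, the skeletal muscle gene Tnnt3 was higher (0.21, adjusted p = 0.0477), 1 of 6 measured, where 10.8% of all rows passed. Members and lists were chosen with earlier results of these data known. Alternatives were quantile normalization, median centring, all rows, robust variance, array weights, the compared groups alone, blocks for replicate number or label number, fits within label numbers, and leaving out each array.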

Additional observations from a re-analysis of the deposited data

How the results depend on the processing

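Of 1380 keratin values under the alternatives, 0 that passed changed sign, and 67 that passed neither way did. The number of keratins passing moved as follows, leaving aside fits within label numbers that hold a single array in a compared group. KO against WT at 0 h (1 keratin) gave 2 with array weights and 0 with the compared groups alone and with the replicate block, and leaving out 1 array gave 0 to 2. At 6 h (2 keratins), quantile normalization gave 0, all rows tested 1, the compared groups alone 0, the lower label numbers 1, and leaving out 1 array 0 to 2. Over the 3 times (1 keratin), array weights gave 2, and leaving out 1 array 1 to 2. The 6 h response in KO (1 keratin) gave 0 after quantile normalization and 0 to 1 when 1 array was left out. From 0 h to 24 h in KO (2 keratins), quantile normalization, all rows tested, the compared groups alone, the replicate block and the higher label numbers each gave 1, and leaving out 1 array 1 to 2. The 24 h interaction (0 keratins) gave 0 to 1 when 1 array was left out. The cause of these shifts was not tested. Over all rows, leaving out 1 array moved the rows passing from 23 to between 5 and 59 for KO against WT at 0 h, from 513 to between 16 and 1068 at 6 h, and from 172 to between 2 and 749 for the 6 h interaction.

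Replicate numbers did not pair the arrays: same-numbered KO and WT arrays had deviations that correlated between -0.458 and 0.251, and 3 of 18 arrays correlated best with their own number. With the replicate block, Krt1 at 0 h had an adjusted p of 0.0516 and Krt1 from 0 h to 24 h in KO one of 0.0597. Each keratin has 1 row, so no other row could be tried.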
